A study of Mus musculus with 15 samples.

Results

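The 9 genes described here, Dbp, Tef, Hlf, Nfil3, Nr1d1, Nr1d2, Ciart, Bhlhe40 and Bhlhe41, encode transcription factors and repressors that are driven by the circadian clock. They were taken by name, through their Entrez IDs, from a table of 35794 IDs, and all 9 were found in it. The measurements were poly(A) RNA sequencing of perigonadal fat pads, the depot beside the gonads, from C57BL/6 mice aged 14 weeks. Weight loss mice (4 libraries) were fed a 60% high fat diet for 5 weeks from the age of 8 weeks and then chow for 1 week. Obese mice (5 libraries) were given the same diet from the same age, and lean mice (5 libraries) were given chow. The sample records list 5 weeks of diet for every group. The labels name these groups Weight loss (SWAP), Obese (HFD) and Lean (RD). The study asked what high-fat feeding and the return to chow do to this tissue. Levels are counts per 1000000 counts (CPM), scaled for library size and composition, and group levels are means ± SD. Differences are log2 fold changes ± SE from edgeR's quasi-likelihood test, with p-values adjusted by the Benjamini-Hochberg method over all genes tested and a threshold of 0.05.

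The mammalian clock is a loop in which the proteins CLOCK and BMAL1 bind E-box sequences and switch on genes, among them those of their own repressors, PER and CRY. The same E-boxes drive many genes of a layer of output factors. DBP, TEF and HLF, a family of leucine zipper activators (PAR bZIP), bind D-box sequences, and NFIL3 represses through the same sequences. REV-ERB-alpha and REV-ERB-beta, encoded by Nr1d1 and Nr1d2, repress the BMAL1 gene and are known to repress Nfil3. CIART (also called CHRONO) and the DEC proteins of Bhlhe40 and Bhlhe41 repress at E-boxes. In mouse fat, as in liver, most of these transcripts rise and fall over the day. The labels give no time of day for tissue collection, so a lower level and a shift of the daily peak cannot be told apart for any gene below.

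In obese fat, 6 of the 8 output genes that passed the filter on low counts were lower than in lean fat, and none was higher. Across all genes tested, 3.85% were called lower in obese fat. The 6 were Ciart, Dbp, Hlf, Bhlhe40, Nr1d1 and Tef, and the fall in Ciart was the greatest of the 8, to 6.63 CPM in obese fat against 23.0 CPM in lean fat. The median log2 value of the 8 was -0.83 for obese against lean fat, beside -0.02 over all genes. In weight loss fat, 4 of the 8 were higher than in obese fat and none was lower, against 0.736% of all genes called higher. These were Hlf, Ciart, Nr1d2 and Dbp, and the median of the 8 was 0.62 (0.02 over all genes). Both comparisons use the same obese libraries, so they are not independent. Between weight loss and lean fat edgeR called 0 of the 8, where 0.0329% of all genes were called. DESeq2 also called 0 of the 8, where it called 261 of the 15208 genes. Without adjustment edgeR's p was under 0.05 for 1 of the 8 there, Nr1d2, and for 1739 of the 15208 genes, a like share. Bhlhe41 was listed at 0 counts in every library and could not be tested.

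**Figure D1:**
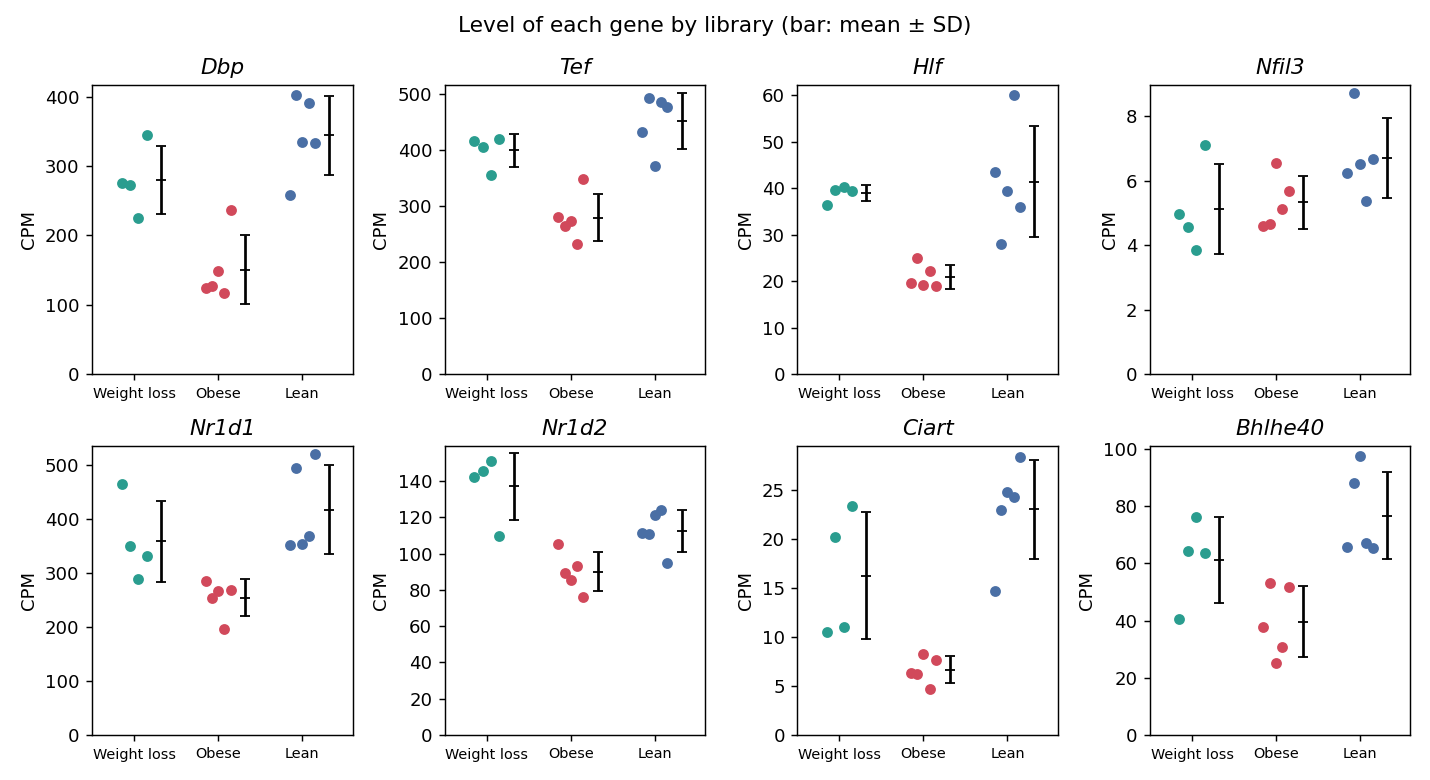
Level of each tested gene in CPM (vertical axis) in every library, with weight loss, obese and lean groups from left to right, points for libraries and a bar for mean ± SD. Obese libraries lie below all 5 lean libraries for Dbp, Tef, Hlf, Nr1d1, Ciart and Bhlhe40, and Nfil3 overlaps among all 3 groups.

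The ranges of the libraries were also compared. For Dbp, Tef, Hlf, Nr1d1, Ciart and Bhlhe40 the highest obese library was below the lowest lean library, which held for 4.30% of all named genes tested. Weight loss libraries were all above all obese libraries for 5 genes, Tef, Hlf, Nr1d1, Nr1d2 and Ciart, which held for 3.37% of all genes. For none of the 8 did weight loss and lean libraries separate, where 1.59% of all genes separated with weight loss higher and 0.705% with weight loss lower. In each of the 5 obese libraries all 8 genes stood below their lean mean. The share of all genes that stood below their lean mean was not counted. Of the weight loss libraries, replicate 4 had 5 genes below it, replicate 1 had 6, and replicates 2 and 3 had 7. The lean libraries themselves had 3 to 7 genes below it, with 7 in lean replicate 1.

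**Figure D2:**
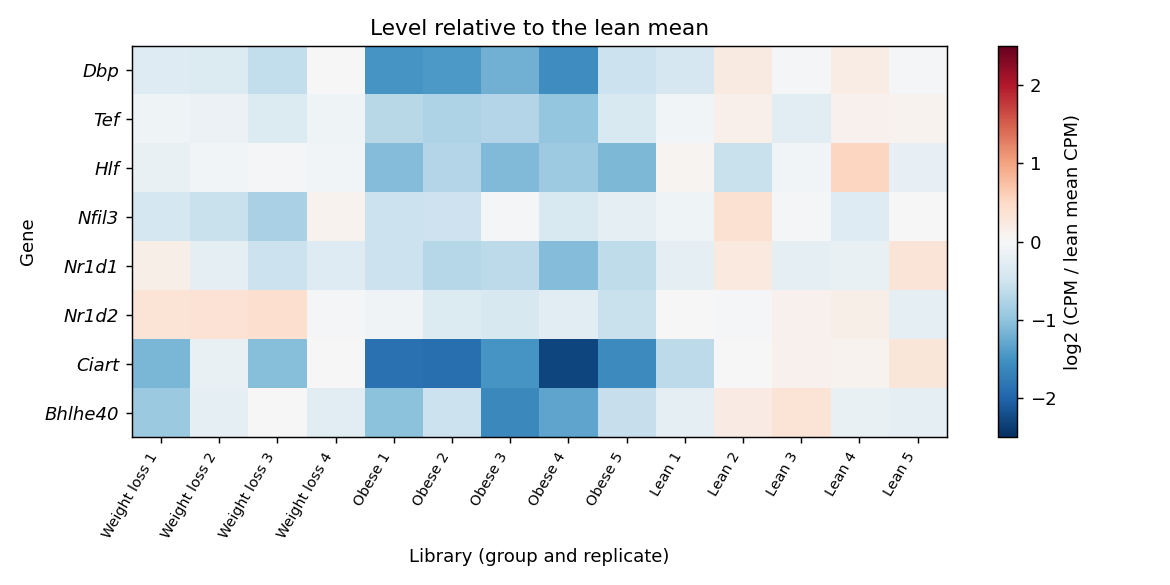
Log2 of CPM over the lean mean CPM for each gene (rows) in each library (columns, weight loss, obese and lean from left to right), blue for lower and red for higher. The deepest blue cell is Ciart in obese replicate 4, at -2.29, and Nr1d2 is above the lean mean in weight loss replicates 1, 2 and 3.

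The PAR bZIP activators were compared first. Dbp (Entrez 13170, chromosome 7, 45705100 to 45710203 on mm10, plus strand) encodes the D-box activator after which the family is best known. Dbp stood at 276, 273, 225 and 345 CPM in weight loss replicates 1 to 4, at 124, 127, 149, 117 and 237 CPM in obese replicates 1 to 5, and at 259, 402, 335, 392 and 334 CPM in lean replicates 1 to 5. All obese libraries were below all lean ones, and obese replicate 5 alone reached into the weight loss range, above weight loss replicate 3. Dbp was lower in obese than in lean fat by a log2 value of -1.19 ± 0.19 (adjusted p = 0.00187). In weight loss fat Dbp was higher than in obese fat by 0.89 ± 0.20 (adjusted p = 0.0408). That call lay near the threshold. Without any 1 of obese replicates 1 to 4, weight loss replicates 1 to 4 or lean replicates 2 to 5, its adjusted p was between 0.0514 and 0.119, and it was 0.0788 when only both groups were fitted and 0.0613 with no filter on low counts. Against lean fat, the weight loss value was -0.30 ± 0.20 (adjusted p = 0.598).

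Tef (Entrez 21685, chromosome 15, 81802673 to 81826863, plus strand) encodes thyrotroph embryonic factor, a close relative of DBP, and had the highest CPM of the family. Tef stood at 416, 405, 355 and 419 CPM in weight loss replicates 1 to 4, at 280.3, 264, 272, 231 and 347 CPM in obese replicates 1 to 5, and at 432, 492, 370.5, 485 and 476 CPM in lean replicates 1 to 5. The obese libraries were the lowest of the 14, and weight loss and lean libraries overlapped. Tef was lower in obese than in lean fat by -0.69 ± 0.12 on the log2 scale (adjusted p = 0.00244). The weight loss value against obese fat, 0.51 ± 0.12, missed the threshold (adjusted p = 0.0511), although the ranges did not overlap. Without obese replicate 5, whose Tef and Dbp levels were the highest of the obese group, the adjusted p was 0.0287, and without lean replicate 3 it was 0.0409. It was 0.0306 with library totals as the scale and 0.00578 in DESeq2's test. Against lean fat, weight loss fat differed by -0.18 ± 0.12 (adjusted p = 0.607).

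Hlf (Entrez 217082, chromosome 11, 90336535 to 90390917, minus strand) encodes hepatic leukaemia factor, the third PAR bZIP protein. Hlf stood at 36.4, 39.7, 40.2 and 39.3 CPM in weight loss replicates 1 to 4, at 19.6, 25.0, 19.2, 22.1 and 19.0 CPM in obese replicates 1 to 5, and at 43.5, 28.1, 39.4, 60.1 and 35.9 CPM in lean replicates 1 to 5. Weight loss libraries lay close together, within 1.11-fold of each other, while lean libraries spanned 2.14-fold. Hlf was lower in obese than in lean fat by -0.98 ± 0.17 (adjusted p = 0.00246). It was higher in weight loss than in obese fat by 0.89 ± 0.17 (adjusted p = 0.0175), with an adjusted p of 0.0513 without obese replicate 3 and 0.0534 without weight loss replicate 3. Weight loss and lean fat differed by -0.09 ± 0.17 (adjusted p = 0.876).

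Nfil3 (Entrez 18030, chromosome 13, 52967209 to 52982878, minus strand), the D-box repressor that opposes the PAR bZIP proteins, was called in none of the comparisons. Its levels were low, between 3.84 and 7.10 CPM in weight loss fat, 4.61 and 6.56 CPM in obese fat, and 5.36 and 8.73 CPM in lean fat. Its log2 value was -0.33 ± 0.21 in obese against lean fat (adjusted p = 0.372). It was -0.06 ± 0.22 in weight loss against obese fat (adjusted p = 0.949) and -0.39 ± 0.23 against lean fat (adjusted p = 0.539). All 3 groups overlapped. Whether Nfil3 and Dbp differ in their response was not tested.

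The REV-ERB genes were the next class. Nr1d1 (Entrez 217166, chromosome 11, 98767932 to 98775377, minus strand) encodes REV-ERB-alpha, a haem-binding nuclear receptor that only represses. Nr1d1 stood at 465, 350.4, 289 and 332 CPM in weight loss replicates 1 to 4, at 286, 254, 267, 197 and 268 CPM in obese replicates 1 to 5, and at 352, 494, 353, 368 and 519.7 CPM in lean replicates 1 to 5. No obese library reached the lowest library of either other group. Nr1d1 was lower in obese than in lean fat by -0.72 ± 0.16 (adjusted p = 0.0117). Its weight loss value against obese fat was 0.50 ± 0.17 and did not pass (adjusted p = 0.167). Against lean fat, weight loss fat differed by -0.22 ± 0.17 (adjusted p = 0.645).

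Nr1d2 (Entrez 353187, chromosome 14, 18204056 to 18239106, minus strand) encodes the related receptor REV-ERB-beta and was the only tested gene whose weight loss mean was above the lean mean. Nr1d2 stood at 142, 146, 151 and 109.9 CPM in weight loss replicates 1 to 4, at 105, 89.4, 85.6, 93.2 and 76.1 CPM in obese replicates 1 to 5, and at 111, 111, 122, 124 and 94.9 CPM in lean replicates 1 to 5. Weight loss replicates 1, 2 and 3 were above every lean library, and replicate 4 was below 4 of the 5. Nr1d2 was higher in weight loss than in obese fat by 0.61 ± 0.12 (adjusted p = 0.0214). Without obese replicate 3 or 5, or weight loss replicate 1, 2 or 3, its adjusted p was between 0.0536 and 0.0781. The obese value against lean fat was -0.32 ± 0.12 and did not pass (adjusted p = 0.0966), though it was 0.046 without weight loss replicate 4 and 0.042 in DESeq2's test. Against lean fat, weight loss fat differed by 0.28 ± 0.12 (unadjusted p = 0.0369 in edgeR's test, adjusted p = 0.409).

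Ciart (Entrez 229599, chromosome 3, 95878500 to 95882257, minus strand) encodes a repressor that binds BMAL1. Ciart stood at 10.5, 20.2, 11.1 and 23.3 CPM in weight loss replicates 1 to 4, at 6.32, 6.24, 8.25, 4.71 and 7.65 CPM in obese replicates 1 to 5, and at 14.7, 23.0, 24.8, 24.3 and 28.4 CPM in lean replicates 1 to 5. Weight loss replicates 1 and 3 were below every lean library, and replicates 2 and 4 lay within the lean range. Ciart was lower in obese than in lean fat by -1.79 ± 0.25 (adjusted p = 0.000674), which ranked it at 89 of 15208 genes by p. It was higher in weight loss than in obese fat by 1.29 ± 0.26 (adjusted p = 0.0206). Without obese replicate 1, 2 or 4, or weight loss replicate 2 or 4, that adjusted p was between 0.0504 and 0.074. Against lean fat, weight loss fat differed by -0.50 ± 0.26 (adjusted p = 0.489).

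The DEC genes differed in what could be measured. Bhlhe40 (Entrez 20893, chromosome 6, 108660629 to 108666925, plus strand) encodes DEC1, a basic helix-loop-helix repressor that binds E-boxes and also responds to low oxygen and growth signals. Bhlhe40 stood at 40.5, 64.5, 76.1 and 63.7 CPM in weight loss replicates 1 to 4, at 37.8, 53.1, 25.1, 30.7 and 51.7 CPM in obese replicates 1 to 5, and at 65.8, 88.1, 97.6, 67.2 and 65.3 CPM in lean replicates 1 to 5. All obese libraries were below all lean libraries, and weight loss replicate 1 lay within the obese range. Bhlhe40 was lower in obese than in lean fat by -0.95 ± 0.22 (adjusted p = 0.0155). The weight loss values were 0.62 ± 0.23 against obese fat (adjusted p = 0.222) and -0.33 ± 0.23 against lean fat (adjusted p = 0.616).

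Bhlhe41 (Entrez 79362, chromosome 6, 145858243 to 145865420, minus strand), the DEC2 gene, was listed at 0 in all 14 libraries. A count of 0 allows up to 3 counts, or 0.0887 to 0.215 CPM depending on the library, for counting error only. The table lists 3081 of 21030 protein-coding IDs at 0 in every library. Acta2, a smooth muscle actin gene, was among those at 0, while Myh11, a myosin gene of the same cells, held 95684 counts over the libraries used. A listing at 0 in this table is therefore not read here as absence of the transcript.

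**Figure D3:**
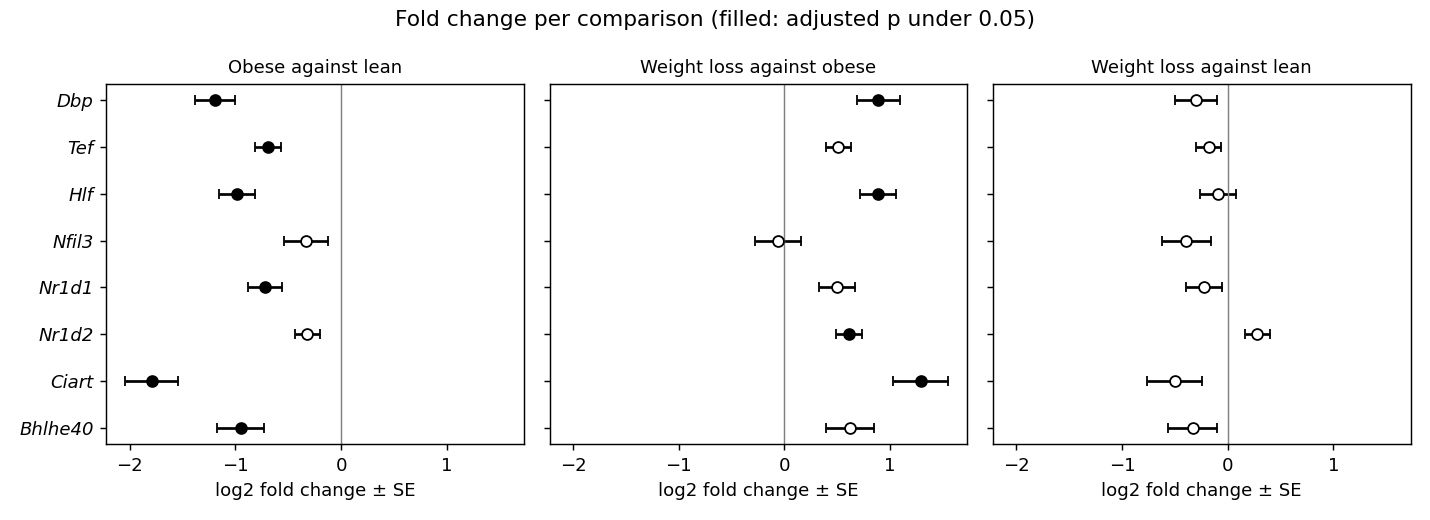
Log2 fold change ± SE (horizontal axis) of each tested gene in the 3 comparisons, with filled points for an adjusted p under 0.05. All 8 obese against lean values lie below 0, 7 of 8 weight loss against obese values lie above 0, and no point is filled for weight loss against lean fat.

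Levels of different genes were compared per kilobase of annotated exon. In weight loss fat the order was Nr1d1 (117 ± 24 CPM per kb), Dbp (93.4 ± 16), Tef (50.7 ± 3.8), Nr1d2 (25.4 ± 3.4), Bhlhe40 (13.0 ± 3.2), Ciart (7.20 ± 2.9), Hlf (5.82 ± 0.26) and Nfil3 (2.53 ± 0.69). In obese fat Hlf (3.14 ± 0.38 CPM per kb), Ciart (2.93 ± 0.61) and Nfil3 (2.63 ± 0.40) overlapped with one another, and the genes above them kept the same order. In lean fat Ciart (10.2 ± 2.2 CPM per kb) was above Hlf (6.20 ± 1.8) by the mean, as in weight loss fat, with overlapping libraries. Nr1d1 and Dbp, the most abundant transcripts per kilobase, overlapped in all 3 groups.

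Promoters were compared because many of these genes are known to be driven through E-boxes, while Nfil3 is known as repressed through REV-ERB elements. RefSeq promoter windows on GRCm38.p6, from 250 bases before to 50 bases after each start site, were found for 8 of the 9 genes, with 9 windows, since Tef has 2 start sites. The E-box CACGTG, read on both strands, occurred in 4 of the 9 windows, those of Ciart, Bhlhe41 and both starts of Tef, and in 7.15% of 32851 windows in the table. The D-box (TTATGTAA or TTACGTAA) occurred in 0 of the 9 and in 1.06% of all windows, and the Rev-erb response element in 0 of the 9 and in 0.384% of all. The 250 bases upstream of the starts of Ciart, the gene with the greatest fall, and Tef are shown with E-boxes in capitals.
Ciart, chr3:95882229-95882478, minus strand: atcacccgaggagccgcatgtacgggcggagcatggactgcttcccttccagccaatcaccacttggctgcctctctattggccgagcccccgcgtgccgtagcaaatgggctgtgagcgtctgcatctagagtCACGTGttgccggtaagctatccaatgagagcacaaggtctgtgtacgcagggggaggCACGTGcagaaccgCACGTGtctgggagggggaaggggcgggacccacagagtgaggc
Tef, upstream start, chr15:81802423-81802672, plus strand: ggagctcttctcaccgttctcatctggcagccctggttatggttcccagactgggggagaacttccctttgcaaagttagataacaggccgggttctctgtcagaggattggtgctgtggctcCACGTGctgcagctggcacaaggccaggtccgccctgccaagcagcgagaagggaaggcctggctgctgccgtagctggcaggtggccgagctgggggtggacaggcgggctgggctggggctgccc
Tef, downstream start, chr15:81811164-81811413, plus strand: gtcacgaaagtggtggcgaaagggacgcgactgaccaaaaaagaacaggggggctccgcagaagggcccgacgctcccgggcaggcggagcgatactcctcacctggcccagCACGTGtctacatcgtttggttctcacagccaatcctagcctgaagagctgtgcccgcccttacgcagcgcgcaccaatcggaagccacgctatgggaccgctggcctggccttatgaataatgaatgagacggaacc
Ciart held 3 E-boxes, which begin 116, 58 and 44 bases before its start, and the Tef starts held 1 each, 127 and 138 bases before the upstream and the downstream start. Dbp, Hlf, Nr1d1, Nr1d2 and Nfil3 had none of these letters in their windows, which says nothing of sites elsewhere in the genes. The start sites used for Dbp, Ciart and Nfil3 lie inside the gene spans given above, and their upstream bases reach into those spans.

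Of 16 other clock genes 14 could be tested, and 3 were lower in obese than in lean fat while none was higher. These were Per1, Per2 and Per3, the PERIOD repressors. Over all genes tested, 3.85% were called lower in obese fat. Per3 averaged 50.5 ± 9.0 CPM in obese fat and 97.0 ± 3.5 CPM in lean fat (SD, n = 5 each), a log2 value of -0.94 ± 0.12 (adjusted p = 0.000348). The values of the others were -0.71 ± 0.15 for Per1 (adjusted p = 0.00972) and -0.48 ± 0.13 for Per2 (adjusted p = 0.0286). In weight loss against obese fat, Per2 (0.67 ± 0.13, adjusted p = 0.0198) and Per3 (0.69 ± 0.13, adjusted p = 0.0119) were higher, and no other gene of the 14 was called. Per1 did not pass in that comparison (0.36 ± 0.16, adjusted p = 0.316), in which 0.736% of all genes were called higher. Between weight loss and lean fat 0 of the 14 were called by edgeR, where 0.0329% of all genes were called. Arntl, the BMAL1 gene, was scarce, at 2.13 ± 0.64 CPM in weight loss fat, 2.30 ± 0.67 CPM in obese fat and 1.99 ± 1.2 CPM in lean fat. Its log2 value for obese against lean fat was 0.20 ± 0.40 (adjusted p = 0.814).

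Genes known, mostly from liver, as targets of the output factors were counted in the same way. Of 7 genes repressed through REV-ERB elements, none was called in any comparison, with median log2 values of 0.20 for obese against lean fat, -0.11 when weight loss was set against obese fat and 0.094 when it was set against lean fat. This list includes Nfil3 itself, and Arntl, Npas2, Clock and Cry1 are also among the other clock genes above. Arntl, Npas2 and Fabp7 were scarce, with SEs of 0.40, 0.61 and 0.63 for obese against lean fat. Of 8 D-box targets 6 could be tested, and the called ones were the same PERIOD genes, with 3 lower in obese fat and 2 higher after weight loss. Over all genes, 3.85% were called lower in obese than in lean fat and 0.736% higher in weight loss than in obese fat. Por, the electron donor of cytochrome P450 enzymes, stood at 475 ± 72 CPM in obese and 676 ± 170 CPM in lean fat and did not pass (adjusted p = 0.0528). Alas1, the first enzyme of haem synthesis, had a log2 value of -0.39 ± 0.20 (adjusted p = 0.26). Of 5 genes rhythmic in many mouse organs, Usp2, a deubiquitinase gene, was lower in obese fat (22.3 ± 2.4 CPM) than in lean fat (51.7 ± 12 CPM), with a log2 value of -1.21 ± 0.28 (adjusted p = 0.014). The other 4 did not pass, nor did any of the 5 in weight loss against obese or against lean fat.

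The genes whose profile over the 14 libraries was most like that of Dbp, Ciart or Nr1d1 were found by the root mean square difference of centred log2 CPM among 11225 other genes of at least 5 CPM. For Nr1d1 the nearest was Per1 (0.14, against a median of 0.477 over all genes), then Zfp609 (0.141), Pcdhga9, Zfp866 and Pcdhgb2. Protocadherin gamma genes share exons, so how reads were split between them is uncertain. For Ciart the nearest were 2010016I18Rik (0.258, median 0.90), Dennd2d, Pcsk4, Slc5a6 and Cfd, the adipsin gene. For Dbp they were Accs (0.22, median 0.673), Slc25a22, Gpat3, a triglyceride synthesis enzyme, 1190005I06Rik and Oplah. The profiles of all these genes share the same libraries and the same differences between groups. Among the output genes themselves, Tef and Nr1d1 were closest (0.18) and Nr1d2 and Ciart farthest apart (0.773).

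The 14 libraries held 13924770 to 33807887 counts each, while weight loss replicate 5, with 230 counts and 0 on each of the 9 genes, was not used. Adipocyte markers (7 of 7 with counts) summed to 17900 to 22600 CPM in weight loss, 17000 to 21600 CPM in obese and 16400 to 22100 CPM in lean fat. Their medians were 20300, 17300 and 21400 CPM in the same order, lowest in obese fat. The part of adipocyte RNA in these results was not tested. Macrophage markers (6 of 6) summed to 382 to 943, 638 to 1030.0 and 289 to 622 CPM in weight loss, obese and lean fat. In bulk tissue fewer cells of a type and less RNA per cell cannot be told apart, and the part of macrophage RNA in these results was not tested. Adipocyte progenitor markers (4 of 4) summed to 459 to 779 CPM in weight loss, 456 to 672 CPM in obese and 303 to 421 CPM in lean fat, so that both diet groups stood above all lean libraries and overlapped with each other. Mesothelial markers (4 of 4) summed to 134 to 235 CPM in weight loss, 139 to 232 CPM in obese and 60.0 to 171 CPM in lean fat. The part of these cell types was not tested either. Epididymal markers (15 genes, of which 13 had counts in weight loss fat) summed to 4.18 to 67.4 CPM in weight loss, 12.4 to 9300 CPM in obese and 4.02 to 3660 CPM in lean fat. With that level as a covariate, 5 output genes were called lower in obese than in lean fat, where Nr1d1 no longer passed (adjusted p = 0.053), and only Hlf, 1 gene, was called higher in weight loss than in obese fat. Over all genes that fit called 295 lower in obese than in lean fat and 7 higher in weight loss than in obese fat, in place of 586 and 112. The 3 lost weight loss values against obese fat were 1.01 ± 0.28 for Dbp, 1.21 ± 0.35 for Ciart and 0.49 ± 0.16 for Nr1d2. Without the covariate they were 0.89 ± 0.20, 1.29 ± 0.26 and 0.61 ± 0.12. Nr1d1, called in neither fit, was 0.29 ± 0.21 with the covariate and 0.50 ± 0.17 without. Epididymal levels reached far higher in obese than in weight loss libraries, so covariate and group cannot be fully told apart. Without the 4 libraries richest in these markers, which left 2 obese libraries, the counts were 2 (Dbp and Ciart) and 0, and over all genes 32 and 2. The obese against lean values that lost their call there were -1.34 ± 0.29 for Bhlhe40, -1.07 ± 0.27 for Hlf, -0.72 ± 0.17 for Tef and -0.65 ± 0.23 for Nr1d1. Those for weight loss against obese fat were 1.03 ± 0.20 for Dbp, 1.00 ± 0.26 for Hlf, 1.16 ± 0.34 for Ciart and 0.52 ± 0.18 for Nr1d2. All 8 values for obese against lean fat stayed below 0 in both. The median log2 value over all genes was -0.027 with the covariate and -0.022 without those libraries.

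Exons of some members overlap exons of a gene on the other strand in GENCODE M21, and no source used here says whether counting used the strand. Nr1d1 shares 263 of its 3077 exonic bases with Thra, a thyroid hormone receptor gene with a median of 18.8 CPM. Dbp shares 539 of 2993 with Sphk2, a sphingosine kinase gene with a median of 80.1 CPM. Bhlhe41, listed at 0, shares 1280 of 6720 with Gm43909, for which no level was found. Tef shares 193 of 7867 with Gm17597 (median 0 CPM), and Bhlhe40 118 of 4705 with 0610040F04Rik (median 0.364 CPM). Sphk2 had a log2 value of -0.06 ± 0.15 for obese against lean fat (adjusted p = 0.848) and 0.05 ± 0.16 for weight loss against obese fat (adjusted p = 0.926). For Thra the values were -0.49 ± 0.24 (adjusted p = 0.221) and 0.09 ± 0.25 (adjusted p = 0.918).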

How the data were processed

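Poly(A) RNA from mouse perigonadal fat was sequenced in 15 libraries of 3 groups. The authors deposited expected counts per Entrez ID, not normalized, with 34.8% of values not whole. The build was mm10, per the submitters' processing notes. Aligner, counter and annotation: not given in the sources used here. IDs on several lines were summed, counts were rounded to whole numbers, and symbols came from RefSeq (GRCm38.p6) for 32919 of 35794 IDs. Libraries under 1000000 counts were left out.

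Genes were filtered with filterByExpr by group (15208 left), scaled by TMM and fitted in 1 model of 3 groups with edgeR 4.0.16 in R 4.3.3 (estimateDisp, glmQLFit, glmQLFTest), two-sided. Standard errors were derived from each log2 fold change and its F value. The test was checked on simulated data with 2-fold changes. It found 45.1% of them for obese against lean fat. For weight loss fat it found 40.9% against obese and 42.3% against lean fat. Of the genes it called, 2.2%, 3.6% and 2.4% were false in the same order. The changed genes were drawn at random over all levels, 195 of 15032 for obese against lean fat. In the data 1477 genes were called in that comparison. The shares found are averages over such genes and not those of the output genes. As changes were missed, a gene not called is not shown to be unchanged. Exon lengths came from GENCODE M21. Alternatives were other scalings and filters, DESeq2 1.42.0, only the groups compared, a replicate block, a threshold of 0.01, each library left out and, chosen after the data were seen, the epididymal alternatives. Plots used matplotlib 3.10.9.

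The members, the gene lists and the epididymal markers were chosen with earlier results of these data known. The rule for named genes took all members, called genes among the other clock genes, up to 3 called genes of each target list, and the 5 genes most like Dbp, Ciart and Nr1d1. Arntl, Npas2, Clock, Cry1, Fabp7, Por, Alas1, Acta2, Myh11, Thra and Sphk2 were named outside that rule, after their values were seen. Some list genes are not reported here and are left out of the counts. The labels call the samples independent but name no animals, so p-values measure the spread between these samples.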

Additional observations from a re-analysis of the deposited data

Results flagged for a closer look

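Dbp in obese replicate 5 stood at 236.7 CPM, above the other 4 obese libraries, of which the nearest was at 149.3 CPM. The gap was 0.732 of the range of the obese group. This was the single case among 24 groups of libraries examined (8 genes in 3 groups), where chance marks about 1 in 20. Epididymal markers summed to 7322 CPM in that library. They summed to 9297 CPM in obese replicate 2, where Dbp stood at 126.9 CPM, and to 2334 CPM in obese replicate 4, which had the lowest Dbp of the group at 117.3 CPM. Among lean libraries they were highest in replicate 1, at 3655 CPM. That library had the lowest Dbp of the lean group, 258.9 CPM, and 7 of the 8 genes below their lean mean. A link between epididymal markers and Dbp was not tested.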

How the results depend on the processing

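For obese against lean fat, 6 output genes were called. The count was 6 to 7 with 1 library left out and 4 to 7 under the other alternatives fixed at the start, and it was 2 without the 4 libraries richest in epididymal markers, which leaves fewer samples. All 184 values of the 8 genes in that comparison were below 0 over 23 alternatives. These alternatives share most of their libraries, so the values are not independent. As reported, the median log2 value over all genes in that comparison was -0.02. For weight loss against obese fat the count of 4 was 2 with the replicate block, 0 at an adjusted p of 0.01, 1 with the epididymal covariate and 0 without those 4 libraries. Over all genes the number called higher, 112 as reported, was 69, 27, 7 and 2 in those settings. The member count was 3 to 5 under the other alternatives fixed at the start. It was 1 to 4 with 1 library left out, and 1 without obese replicate 3, weight loss replicate 2 or weight loss replicate 3. It was 2 without obese replicates 1, 2 or 4 or weight loss replicates 1 or 4. For weight loss against lean fat the count was 0 to 0 with 1 library left out and 0 under all others. Values that changed sign were those of genes not called: Nfil3 in weight loss against obese fat (0.0052 without obese replicate 3 and 0.059 without weight loss replicate 3, in a range of -0.26 to 0.059 with 1 library left out) and Hlf in weight loss against lean fat (0.044 without lean replicate 4, in a range of -0.23 to 0.044 with 1 library left out, and 0.026 with the epididymal covariate). The cause was not tested. Over all genes tested, DESeq2 called 1010 lower in obese than in lean fat (586 in edgeR), 268 higher in weight loss than in obese fat (112 in edgeR) and 261 between weight loss and lean fat (5 in edgeR). Of all other values of single genes, 502 kept their direction and call, 40 lost and 6 gained a call. With the replicate block, Hlf (adjusted p = 0.0528) and Nr1d2 (0.0552) lost their call against obese fat. The labels give no pairing of samples by replicate number, and the check that follows cannot exclude one. Correlations of same-numbered libraries ran from -0.553 to 0.399, and 4 of 13 pairs were over 0.1. A pair with different numbers, weight loss replicate 1 and lean replicate 2, reached 0.604. In 6 of 26 cases a library matched its own number best, with 4 or 5 libraries to choose from in each case. Nfil3 stood at 8.73 CPM or less in every library, and its SE of 0.21 to 0.23 was like that of Bhlhe40 (0.22 to 0.23).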

Other observations

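The balance of D-box activator to repressor transcripts was looked at as the level per kilobase of Dbp over that of Nfil3. It was 37.5, 40.4, 39.7 and 32.8 in weight loss replicates 1 to 4, 18.2, 18.4, 15.4, 15.5 and 28.2 in obese replicates 1 to 5, and 28.1, 31.2, 34.8, 49.4 and 33.9 in lean replicates 1 to 5. The weight loss libraries were above all obese libraries, and obese replicate 5 lay just above lean replicate 1. The ratio was chosen after the levels were seen and was not tested.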
